A study of Drosophila melanogaster with 36 samples.

Results

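The genes described are the 71 mitochondrial ribosomal protein genes that S3 cells expressed, out of 17142 genes in the deposited counts. They were taken by name: FlyBase symbols starting with mRpL or mRpS, the usual prefixes for proteins of the large and small subunit, with a mean of at least 5 CPM (counts scaled to the size of the library) over 36 libraries. Of 72 genes with such a symbol, 46 mRpL and 25 mRpS genes reached that level. mRpL34, a bacterial-type protein of the large subunit, lay just inside with a mean of 6.06 CPM from 612 reads in all. mRpL53 was left out, with 0 reads in the counts of every library. The authors' values per length of transcript (FPKM) do list it, at a median of 46.3 FPKM. All 71 genes passed the filter on low counts that was set for the tests. mRpS34 was not analysed here.

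RNA-Seq was done on S3, a line of cultured embryonic Drosophila cells, to see how gene expression responds to a fatty acid load and to small molecules that lower lipid storage. All cultures were treated for 4 h. The OA-fed groups received 200 µM oleic acid (OA), and all groups but OA and noOA received 0.1% DMSO, the solvent of the small molecules. The small molecules belong to 3 chemotypes (CT1, CT2 and CT3), each with a derivative active against lipid storage and an inactive one, and were given at 1 µM to OA-fed cells. The active and inactive derivatives were THI-4 and THI-68 for CT1, TPE-69 and TPE-67 for CT2, and AU-6 and AU-73 for CT3. With the controls vehicle OA (DMSO and OA) and vehicle noOA (DMSO alone) these made 8 groups of 3 libraries. OA and noOA cells, without DMSO, had 6 libraries each. All groups come from 1 cell line, and the labels do not say whether libraries of a group are separate cultures, so p-values measure the spread between libraries, which may be technical in part.

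Mitochondrial ribosomes translate the few mRNAs encoded by mitochondrial DNA, which make core subunits of the oxidative phosphorylation complexes. Their rRNAs are transcribed inside the organelle, but their proteins are encoded in the nucleus, made in the cytoplasm and imported. The large subunit holds the centre that joins amino acids and the small subunit reads the mRNA. Some of the proteins have counterparts in bacterial ribosomes, called bacterial-type here, and others were added during the evolution of mitochondria, called mitochondria-specific here. The genes were sorted between these classes by their symbols, with mRpL47 and mRpS24 moved to the bacterial-type class. Subunits were taken from the symbols too. mRpS30 and mRpS18A were thus counted in the small subunit, though their human counterparts lie in the large subunit.

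Libraries held between 1208200 and 9548314 counts, with a median of 5005547. The 18S rRNA gene took 34.7% to 51.5% of them and was left out. The mitochondrial ribosomal protein genes together took between 0.234% and 0.289% of a library's counts, against 7.50% to 10.3% for the cytoplasmic ribosomal protein genes. The study dropped replicate 1 of vehicle noOA and replicate 3 of vehicle OA, which are among the shallowest libraries and had the lowest mean Spearman correlations with the others (0.918 and 0.933). They are left out of the tests, so each vehicle group had 2 libraries there, and their values are named where given. The hemocyte markers Pxn, srp, eater and Hml averaged 5609, 1325, 288 and 264 CPM, and the hemocyte markers crq and He 72.3 and 6.26 CPM. NimC1, also a hemocyte marker, and each of the 6 fat body and muscle markers averaged under 1 CPM. The neuronal markers were split, with elav and brp at 36.5 and 29.6 CPM and nSyb and Syt1 at 0.70 and 0.88 CPM.

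Levels of different genes were compared as FPKM, the authors' values per length of transcript. The most abundant was mRpL12, a protein of the stalk that recruits translation factors to the large subunit, with 100.8 ± 21.2 FPKM (SD, n = 36). mRpS16, a bacterial-type protein of the small subunit, followed with a mean of 90.2 FPKM. The mitochondria-specific large subunit proteins mRpL55 and mRpL42 had 85.9 and 66.7 FPKM, and bacterial-type mRpL33 had 76.4 FPKM. Neighbours in this order differed by less than the SD over libraries.

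At the low end, mRpS28 of the small subunit and the mitochondria-specific mRpL54 of the large subunit had means of 13.3 and 15.3 FPKM. Bacterial-type mRpS6, mRpL11, which lies at the base of the stalk in bacterial ribosomes, and mRpL21 had 15.9, 16.1 and 16.9 FPKM. The highest mean was thus 7.57 times the lowest. The low genes rest on few reads, with medians of 24 reads per library for mRpS6 and 27.5 for mRpS28.

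The median of the means was 32.0 FPKM over all 71 genes, against 17.0 FPKM over 6806 other genes at a mean of at least 5 CPM. It was 32.8 FPKM for the large subunit and 29.2 FPKM for the small subunit. For the 44 bacterial-type genes it was 35.7 FPKM and for the 27 mitochondria-specific genes 26.2 FPKM. Cytoplasmic ribosomal protein genes were far higher, with a median of 1149 FPKM over 89 genes. These differences between sets of genes are a description and were not tested.

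**Figure D1:**
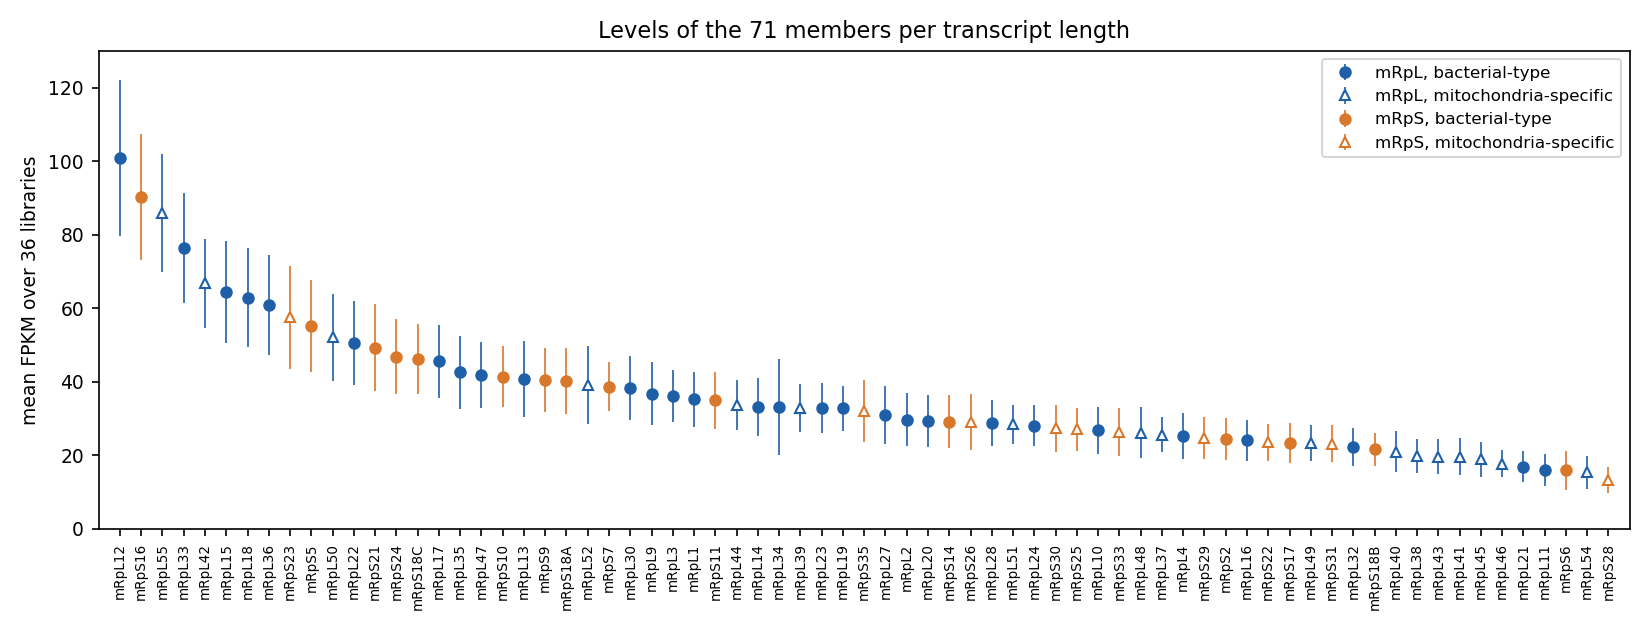
Mean FPKM over 36 libraries of each of the 71 genes, ordered by level, with the SD over libraries as bars, mRpL genes in blue and mRpS genes in orange, bacterial-type genes as filled circles and mitochondria-specific genes (both by symbol) as open triangles. The means run from 100.8 FPKM for mRpL12 to 13.3 FPKM for mRpS28, and both subunits are spread over most of that range.

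The genes were short. In the BDGP6 annotation their coding length had a median of 582 nt and a range from 192 to 1671 nt, against a median of 1464 nt over 6488 other protein-coding genes at this level. They had a median of 2 coding exons, against 4 in the others. The 71 genes were spread over all large chromosome arms, with 12 on 2L, 11 on 2R, 16 on 3L, 21 on 3R and 11 on X, and none on chromosome 4. The exons of mRpL13 share 35.2% of their bases, and those of mRpS14 3.76%, with another gene on the same strand (CG10602 and CG32533), so reads there cannot be assigned to a single gene.

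Summed over the 71 genes, expression hardly varied between groups. The sum lay between 2378 and 2894 CPM over the 34 libraries, a 1.217-fold range. Such shares cannot tell fewer cells of a kind from less RNA per cell. Active CT2 cells had the lowest mean sum, at 2410 CPM (2378, 2387 and 2465 CPM). Active CT1 replicate 3 and OA replicates 1 and 2, at 2416, 2416 and 2437 CPM, lay below the highest of these. Inactive CT2 cells held the library with the highest sum and spread most (2481, 2687 and 2894 CPM). The sum averaged 2498 ± 89.0 CPM in active CT1 cells and 2634 ± 120 CPM in inactive CT1 cells, and 2617 ± 55.2 CPM in active CT3 cells and 2691 ± 43.2 CPM in inactive CT3 cells (SD, n = 3 each). In all 3 chemotypes the mean of the active group was the lower one, and the libraries of the groups overlapped in CT1 and CT3 but not in CT2, where they lay 2465 CPM and below in active and 2481 CPM and above in inactive cells. By the median deviation of the 71 genes from their mean log2 CPM, inactive CT2 replicate 2 lay at -0.08, within the active CT2 libraries at -0.05, -0.08 and -0.10.

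Among the controls the sum was 2522 and 2564 CPM in vehicle OA cells, against 2620 and 2717 CPM in vehicle noOA cells. The library of vehicle OA that was left out had 2773 CPM, above all 4 of these. With both left-out libraries the mean was 2619 CPM in vehicle OA cells and 2655 CPM in vehicle noOA cells, and the groups overlapped. Without DMSO the sum ran from 2416 to 2780 CPM with a median of 2607 CPM in OA cells, and from 2516 to 2665 CPM with a median of 2568 CPM in noOA cells, which overlap over the whole noOA range.

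**Figure D2:**
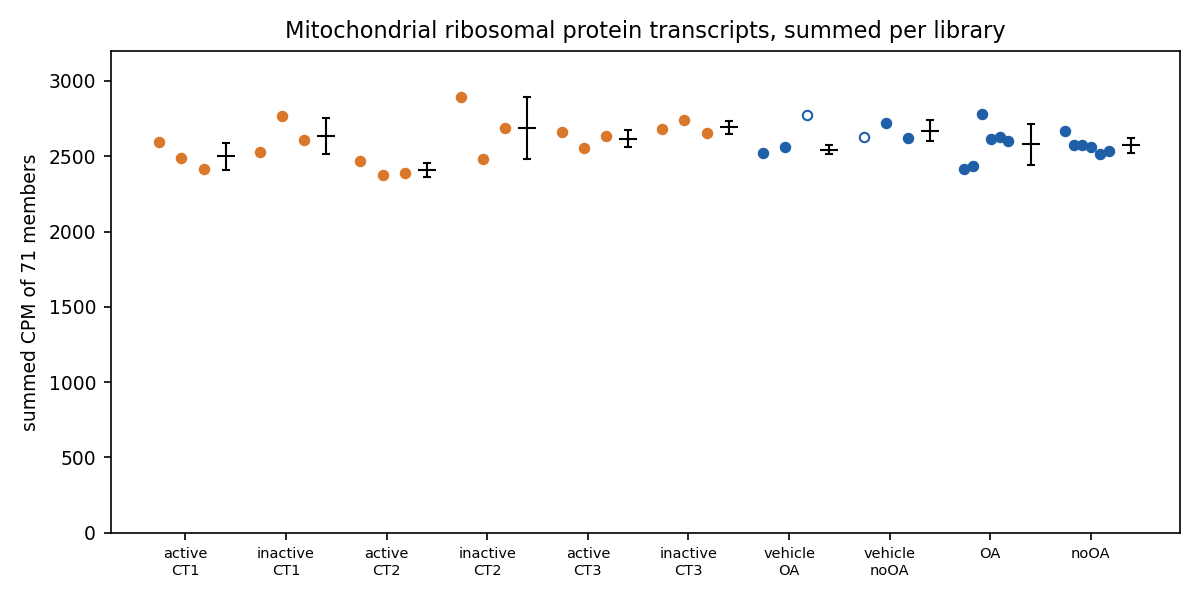
Summed CPM of the 71 genes in each library, by group, with derivative groups in orange and controls in blue, open circles for the 2 libraries left out of the tests, and the mean ± SD of the other libraries as black bars. All libraries lie close together, with the mean of active CT2 lowest and inactive CT2 most spread.

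Single genes varied little too. The range of the 10 group means had a median of 0.37 on the log2 scale over the 71 genes, against 0.39 over all 7614 genes tested. It passed 1, a doubling, in 1 of 71 genes (1.41%), against 734 of 7614 genes (9.64%). The spread between replicates was similar, with a median SD of 0.167 in log2 CPM for these genes and 0.155 for all genes. The deviations of different mitochondrial ribosomal protein genes from their group means had a median pairwise r of 0.08 over 2485 pairs. Single pairs ran from -0.52 to 0.78 over the 34 libraries, which share depth and scaling. No such value for other genes is given here, so whether these genes vary together was not tested.

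The gene past 1 was mRpL34, the least abundant by CPM, with a range of 1.12 beside a replicate SD of 0.64. Its highest group mean was in vehicle noOA cells and its lowest in inactive CT3 cells (5.32, 5.40 and 0.657 CPM), where 1 library lay far below the other pair. mRpL20, a bacterial-type protein that acts early in assembly of the bacterial large subunit, and mRpL41, a mitochondria-specific large subunit protein, had ranges of 0.67 each. The steadiest were mRpL47, the counterpart of bacterial L29, and the mitochondria-specific mRpL37 and mRpS23, with ranges of 0.16, 0.18 and 0.20.

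A test for any difference among the 10 groups was added after the pairwise results were seen. It called 33.9% of all genes tested, and 27.9% of the 4680 genes within the range of mean CPM of the 71 genes. Of the 71 genes it called 3 (4.23%, edgeR, adjusted p under 0.05). These were bacterial-type mRpS5 (adjusted p = 0.0264), the stalk protein mRpL12 (adjusted p = 0.0420) and mitochondria-specific mRpL50 (adjusted p = 0.0427), and 8 of the 71 genes had an unadjusted p under 0.05. mRpS5 had its highest means without DMSO, at 58.6 ± 6.91 CPM in OA and 58.8 ± 4.81 CPM in noOA cells (SD, n = 6 each), and its lowest in inactive CT1 cells (38.1, 45.9 and 53.0 CPM). mRpL12 was highest in inactive CT3 cells (110, 116 and 124 CPM) and lowest in active CT2 cells (83.2, 97.3 and 97.7 CPM). mRpL50 was highest in inactive CT1 cells (51.5 ± 3.16 CPM, n = 3) and lowest in noOA cells (40.1 ± 3.56 CPM, n = 6). With all 36 libraries only mRpS5 was called, without noOA replicate 1 only mRpS5 and mRpL12, and DESeq2's likelihood ratio test called 0 of the 71 genes and 24.6% of all genes.

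OA feeding without DMSO, in OA against noOA cells, was the best replicated comparison. mRpS30 rose 1.15-fold and mRpL24 fell to 0.844 of its noOA level, and the other 69 genes were not called. That is 2 of 71 genes, against 14.5% of all genes tested (edgeR's quasi-likelihood test, Benjamini-Hochberg adjusted p under 0.05), or 11.3% of the 4680 genes within the same range of mean CPM. At an unadjusted p under 0.05 there were 4 of the 71 genes. The median log2 fold change was -0.01 over the 71 genes, and 46.5% of them had positive fold changes, against 50.1% of all genes. The 95% intervals of all 71 genes lay within a 1.5-fold change in either direction. Of 6 hemocyte markers tested, 4 (srp, Hml, eater and Pxn) rose in OA cells too, with log2 fold changes between 0.13 and 0.27. He and crq were not among these 4, and the part of such markers in the result was not tested.

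mRpS30 carries a small subunit name, but its human counterpart lies in the large subunit of the mitochondrial ribosome. It had between 88.0 and 109 CPM with a median of 93.9 CPM in the 6 OA libraries, and between 70.0 and 88.6 CPM with a median of 81.4 CPM in the 6 noOA libraries. The groups met at their edges: noOA replicates 1 to 3 lay between 70.0 and 74.9 CPM, below every OA library, and replicates 4 to 6 lay between 87.9 and 88.6 CPM, beside the lowest OA libraries. The log2 fold change was 0.20 (SE 0.0591, adjusted p = 0.0140, edgeR). In vehicle OA against vehicle noOA cells the estimate was 0.17, with a 95% interval from -0.05 to 0.39 (adjusted p = 0.427). The call was lost without noOA replicate 3 (log2 fold change 0.16, adjusted p = 0.0824) and with limma on FPKM values, where the estimate was larger, at 0.43 to 0.45 (adjusted p between 0.218 and 0.316).

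mRpL24, a bacterial-type protein of the large subunit that starts its assembly in bacteria, had between 25.5 and 31.9 CPM with a median of 30.0 CPM in OA cells, and between 30.5 and 41.9 CPM with a median of 34.6 CPM in noOA cells. Of the noOA libraries, 5 lay above every OA library and noOA replicate 5 lay among the OA values. Its log2 fold change was -0.25 (SE 0.0855, adjusted p = 0.0440, edgeR). With DMSO the estimate was 0.06, with a 95% interval from -0.26 to 0.39. The call was lost when any 1 of 9 libraries was left out (noOA replicates 1, 2, 3, 4 and 6, OA replicates 1, 2 and 5, vehicle noOA replicate 2), with adjusted p between 0.0533 and 0.125, and with DESeq2 (adjusted p = 0.140).

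The same comparison in the presence of DMSO, vehicle OA against vehicle noOA, called 1 of the 71 genes, against 5.32% of all genes tested. The share was 3.53% of the 4680 genes within the same range of mean CPM. mRpS25, a mitochondria-specific protein of the small subunit, fell. Most of the estimates were negative: the median log2 fold change was -0.08 over the 71 genes, and 32.4% had positive fold changes, against 49.3% of all genes. At an unadjusted p under 0.05 there were 5 genes, all lower, among them mRpL55 (log2 fold change -0.52, adjusted p = 0.0835) and mRpL41 (-0.60, adjusted p = 0.233, with -0.32 without vehicle OA replicate 1 and -1.06 without replicate 2). The libraries of the 2 groups did not overlap in 21 genes, 2 higher and 19 lower in vehicle OA (2.82% higher, against 24.8% of all genes, and 26.8% lower, against 25.3%).

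mRpS25 had 14.0 and 15.0 CPM in vehicle OA cells, against 23.7 and 21.7 CPM in vehicle noOA cells. The left-out libraries had 12.5 CPM in vehicle OA and 14.1 CPM in vehicle noOA, so the left-out vehicle noOA library lay among the vehicle OA values. The log2 fold change was -0.64 (SE 0.196, adjusted p = 0.0464, edgeR). Without DMSO no such difference was seen, with 16.2 to 23.7 CPM in OA and 17.2 to 22.2 CPM in noOA cells and a log2 fold change of 0.00 (95% interval from -0.20 to 0.20).

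The difference between the OA effects with and without DMSO was itself -0.64 for mRpS25 but was not called (adjusted p = 0.998, edgeR). The call was lost when any 1 of the 4 vehicle libraries was left out (adjusted p between 0.115 and 0.281) and with DESeq2 (adjusted p = 0.132), and was kept with all 36 libraries (log2 fold change -0.60, adjusted p = 0.0427). For the OA effect with minus without DMSO, edgeR called 0 of the 71 genes and 0% of all genes, 5 of the 71 had an unadjusted p under 0.05, and DESeq2 and limma also called 0 (1 and 5 genes at an unadjusted p under 0.05).

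**Figure D3:**
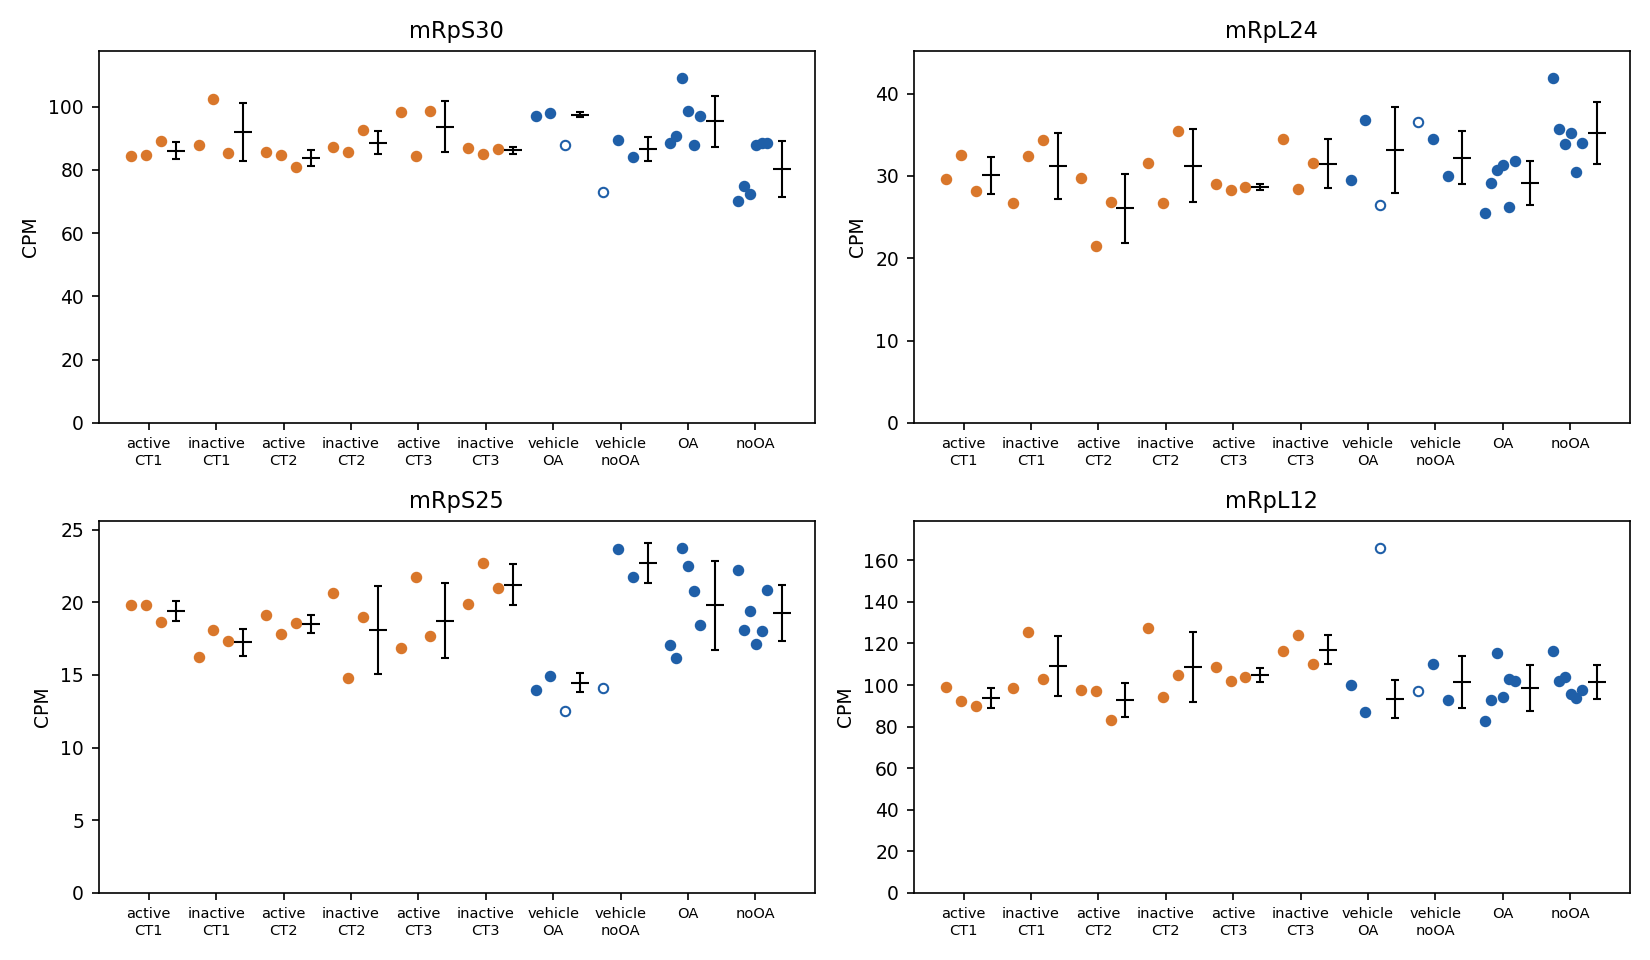
CPM in each library, by group, of the 3 genes called in a comparison of OA feeding (mRpS30, mRpL24 and mRpS25) and of mRpL12, with derivative groups in orange, controls in blue, open circles for the 2 libraries left out of the tests, and the mean ± SD of the other libraries as black bars. mRpS25 was at 14.0 and 15.0 CPM in vehicle OA, against 23.7 and 21.7 CPM in vehicle noOA, and mRpL12 reached 166 CPM in the left-out vehicle OA library alone.

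The active derivatives were compared with vehicle OA, which all 3 comparisons share. No mitochondrial ribosomal protein gene was called. For active CT1 edgeR called 0 of 71 genes, against 11% of all genes, and 3 of the 71 had an unadjusted p under 0.05 (DESeq2 0 and limma 1). For active CT2 it called 0, against 1.75% of all genes, with 4 at an unadjusted p under 0.05 (DESeq2 1 and limma 1). For active CT3 it called 0, against 4.26%, with 2 at an unadjusted p under 0.05 (DESeq2 2 and limma 1). DESeq2 and limma called 0 in each. Of the 4680 genes within the same range of mean CPM, edgeR called 9.23%, 1.2% and 3.61% for active CT1, CT2 and CT3.

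The median log2 fold changes over the 71 genes were -0.01 for active CT1, -0.07 for active CT2 and 0.03 for active CT3. Positive fold changes were seen in 46.5%, 29.6% and 62% of the 71 genes for CT1, CT2 and CT3, against 49.1%, 49% and 49.4% of all genes. The 95% intervals lay within a 1.5-fold change for 51, 53 and 51 of the 71 genes, so for the others a change of that size was not excluded.

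The lowest adjusted p for active CT1 was that of mRpL21, a bacterial-type protein, with 13.4, 16.5 and 16.3 CPM in active CT1 cells, against 24.0 and 18.2 CPM in vehicle OA cells (log2 fold change -0.43, adjusted p = 0.132). For active CT2 it was that of mRpL3, whose bacterial counterpart reaches towards the catalytic centre, with 49.9, 59.1 and 54.7 CPM in active CT2 cells, against 73.4 and 59.8 CPM in vehicle OA cells (log2 fold change -0.27, 95% interval from -0.50 to -0.04, adjusted p = 0.384). For active CT3 it was that of mRpL36, a bacterial-type protein, with 33.7, 36.9 and 31.8 CPM in active CT3 cells, against 30.5 and 20.4 CPM in vehicle OA cells (log2 fold change 0.45, adjusted p = 0.178). mRpL36 was chosen after its values were seen. The libraries did not overlap for any of the 3 genes, and none was called (edgeR). Such a lack of overlap was common. It held for 20.2% of all genes in active CT1 (lower), 13.4% in active CT2 (lower) and 17% in active CT3 (higher). Of the 71 genes the shares were 15.5%, 15.5% and 16.9%. The vehicle OA library left out had 13.9 CPM for mRpL21, which lies among the active CT1 values, 79.5 CPM for mRpL3 and 23.7 CPM for mRpL36. The log2 fold change of mRpL3 was -0.12 without vehicle OA replicate 1 and -0.43 without replicate 2.

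The inactive derivatives, compared with the same vehicle OA libraries, gave 0 called genes of the 71 too. For inactive CT1 and inactive CT3 edgeR called 0% of all genes, and for inactive CT2 0.486%. At an unadjusted p under 0.05 there were 2 genes for CT1, 1 for CT2 and 6 for CT3 with edgeR, 0, 1 and 4 with DESeq2, and 1, 0 and 1 with limma, and neither DESeq2 nor limma called any. The estimates leaned upward, with medians of 0.03, 0.09 and 0.10 and positive fold changes in 60.6%, 73.2% and 74.6% of the 71 genes for CT1, CT2 and CT3, against 51.5%, 51.5% and 51.3% of all genes. The intervals lay within a 1.5-fold change for 52, 49 and 47 genes.

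mRpL12 and mRpS35, a mitochondria-specific protein of the small subunit, were among the 6 genes for inactive CT3. mRpL12 had 116, 124 and 110 CPM in inactive CT3 cells, against 99.9 and 86.8 CPM in vehicle OA cells, which do not overlap (log2 fold change 0.35, adjusted p = 0.605, edgeR). The left-out vehicle OA library had 166 CPM, above all of them. In this comparison 15.5% of the 71 genes were higher without overlap, against 12.4% of all genes. mRpS35 had 63.2, 79.9 and 76.2 CPM in inactive CT3 cells, against 61.0 and 56.9 CPM in vehicle OA cells (log2 fold change 0.31, adjusted p = 0.675).

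**Figure D4:**
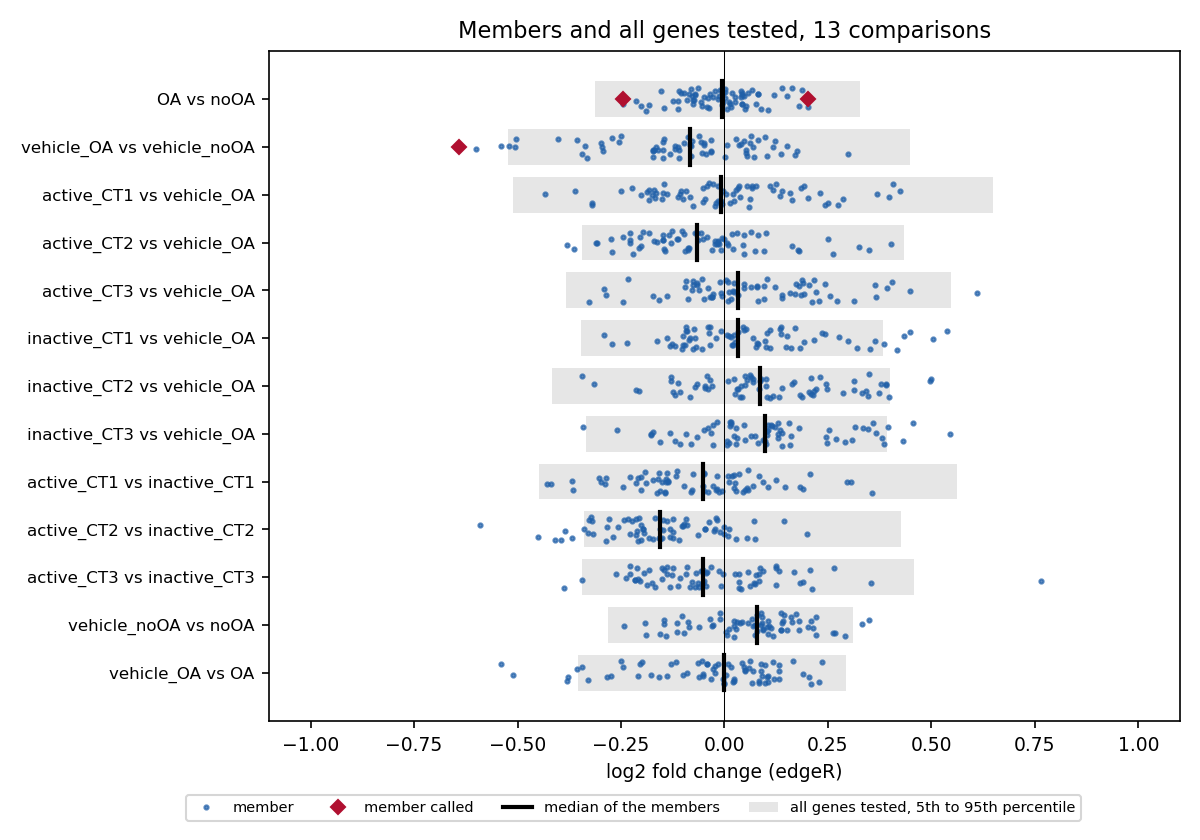
Log2 fold changes (edgeR) of the 71 genes in 13 comparisons, each blue point a gene, with called genes as red diamonds, the median of the 71 genes as a black bar and the 5th to 95th percentile of all genes tested as a grey band. The medians lie between -0.16 (active against inactive CT2) and 0.10 (inactive CT3 against vehicle OA), and 3 genes are marked as called, in the comparisons of OA feeding.

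The active derivative was set against the inactive one of its chemotype in 3 pairs, all at 1 µM and 4 h with 3 libraries in each group, with p-values adjusted over all genes within each pair. No mitochondrial ribosomal protein gene was called in any pair. For CT1 edgeR called 0 of 71 genes, against 11.6% of all genes, for CT2 0, against 1.55%, and for CT3 0, against 3.23%. Of the 4680 genes within the same range of mean CPM it called 9.85%, 1.07% and 2.41%. At an unadjusted p under 0.05 there were 4, 15 and 4 genes for CT1, CT2 and CT3 with edgeR, 0, 8 and 1 with DESeq2, and 1, 0 and 2 with limma, and neither DESeq2 nor limma called any. The intervals lay within a 1.5-fold change for 60, 55 and 58 genes.

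In CT2 nearly all estimates pointed down. Of the 71 genes, 63 had negative and 8 positive log2 fold changes, with a median of -0.16, while 47.9% of all genes were positive. Positive estimates were as many as 35.2% of the 71 genes in CT1 and 36.6% in CT3, with medians of -0.05 each. The libraries did not overlap in 11 genes of CT2, all lower in active CT2 (15.5% of the 71 genes, against 7.2% of all genes), and 0 were all higher (against 9.22%). In CT1 8 genes were all lower and 3 all higher (against 13.2% and 14.5% of all genes), and in CT3 9 and 2 (against 8.37% and 10.4%).

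In CT2, 40 of 46 large subunit genes and 23 of 25 small subunit genes (both by symbol) had negative estimates, with medians of -0.18 and -0.14. The medians were -0.15 for bacterial-type and -0.16 for mitochondria-specific genes. The 15 genes with an unadjusted p under 0.05 were all lower in active CT2, 12 of the large and 3 of the small subunit. The share of all genes under that rule is not given here, so the 15 genes are not set against a background. Cytoplasmic ribosomal protein genes had negative estimates in 72 of 81 tested genes and a median of -0.13, and the 13 transcripts of mitochondrial DNA had 10 negative estimates and a median of -0.16. edgeR called 0 of either in this pair, with 23 and 1 at an unadjusted p under 0.05, and the part of these in the result was not tested.

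mRpL30, a bacterial-type protein of the large subunit, had the smallest p of the CT2 pair, with 37.2, 31.2 and 32.8 CPM in active CT2 cells, against 57.6, 35.1 and 41.6 CPM in inactive CT2 cells. Inactive CT2 replicate 2 lay among the active values, and the log2 fold change was -0.40 (95% interval from -0.66 to -0.13, adjusted p = 0.118, edgeR). mRpL11 had 12.7, 11.9 and 11.9 CPM in active CT2 cells, against 20.0, 18.3 and 17.5 CPM in inactive CT2 cells, with no overlap and a log2 fold change of -0.59 (95% interval from -1.05 to -0.13). mRpL30 was chosen after its values were seen.

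mRpL12 had 97.7, 97.3 and 83.2 CPM in active CT2 cells, against 127, 94.1 and 105 CPM in inactive CT2 cells (log2 fold change -0.23, 95% interval from -0.43 to -0.03, adjusted p = 0.260). mRpL3 had 49.9, 59.1 and 54.7 CPM in active CT2 cells, against 72.7, 59.0 and 62.3 CPM in inactive CT2 cells (log2 fold change -0.24, 95% interval from -0.45 to -0.04, adjusted p = 0.248). In both genes the second inactive library was no higher than the highest active one.

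Inactive CT2 replicate 2 had the lowest summed CPM of its group, and inactive CT2 replicate 1 the highest of the 34 libraries (2894 CPM). Leaving out 1 library at a time gave calls among the 71 genes for replicate 2 only, and 0 calls in the other 33 fits. With inactive CT2 replicate 2 left out, 3 genes were called lower in active CT2. These were mRpL30 (log2 fold change -0.48, adjusted p = 0.0354), mRpL23, whose bacterial counterpart lies at the exit of the peptide tunnel (-0.60, adjusted p = 0.0354), and mitochondria-specific mRpS26 (-0.48, adjusted p = 0.0282), all chosen after their values were seen. The share of all genes called in that fit is not given here. The median log2 fold change over the 71 genes stayed between -0.19 and -0.11 whichever library was left out. On the FPKM scale it was -0.01 beside 0.11 over all genes, so that the distance between them was -0.13, against -0.15 on the counts.

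**Figure D5:**
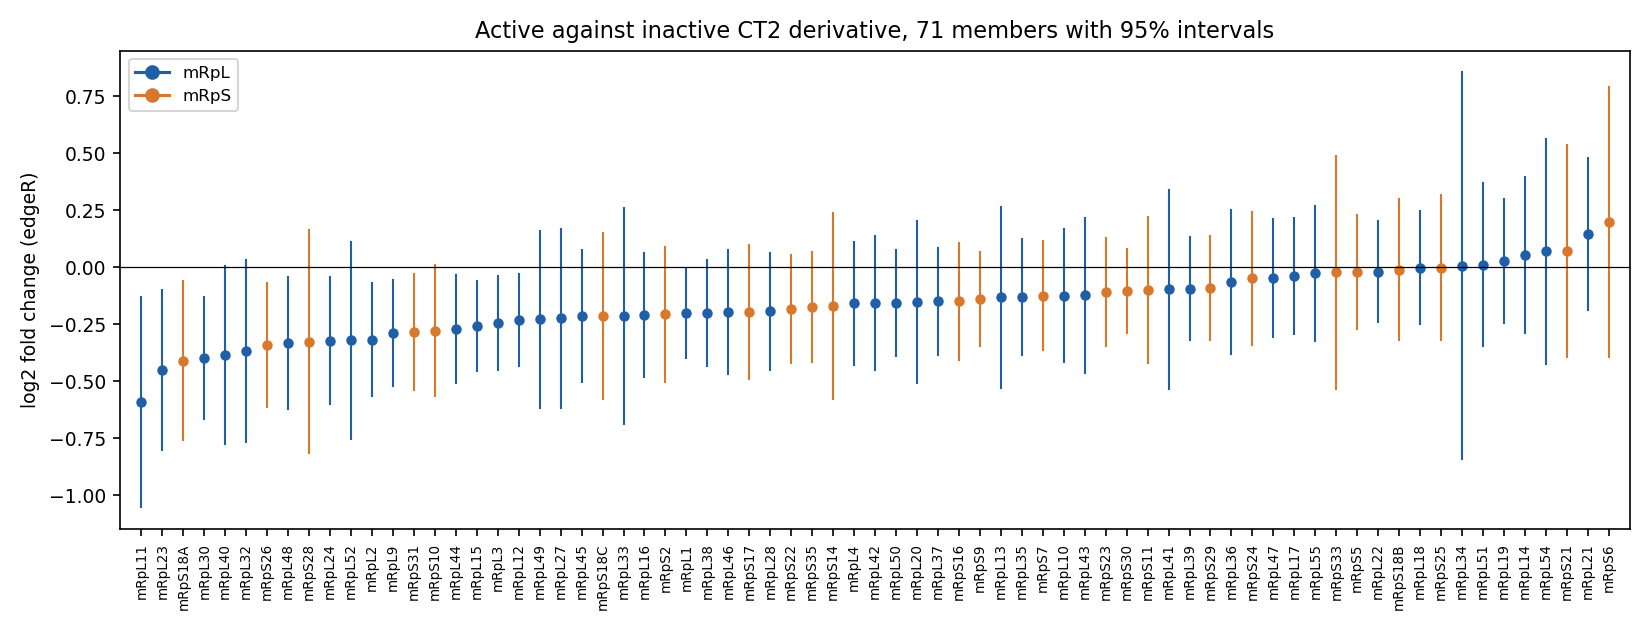
Log2 fold change (edgeR) of active against inactive CT2 cells for each of the 71 genes, ordered from lowest to highest, with 95% intervals as bars, mRpL genes in blue and mRpS genes in orange. 63 of 71 points lie below 0, from -0.59 for mRpL11, and none was called after adjustment.

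For CT1 the 4 genes at an unadjusted p under 0.05 included mRpL32, a bacterial-type protein, and mRpL20. mRpL20 had 17.7, 12.9 and 13.7 CPM in active CT1 cells, against 18.8, 20.0 and 19.0 CPM in inactive CT1 cells, with no overlap (log2 fold change -0.37, adjusted p = 0.210, edgeR). mRpL32 had 17.2, 10.5 and 13.3 CPM in active CT1 cells, against 16.3, 23.1 and 17.4 CPM in inactive CT1 cells (log2 fold change -0.43, adjusted p = 0.175), and it was called when active CT1 replicate 1 was left out (-0.66, adjusted p = 0.0475). It was chosen after its values were seen. mRpS5 had 55.8, 50.6 and 54.7 CPM in active CT1 cells, against 45.9, 38.1 and 53.0 CPM in inactive CT1 cells, which overlap (log2 fold change 0.19, 95% interval from -0.05 to 0.43, adjusted p = 0.367).

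For CT3 mRpS35 had 65.7, 60.4 and 58.0 CPM in active CT3 cells, against 63.2, 79.9 and 76.2 CPM in inactive CT3 cells, where replicate 1 lay among the active values (log2 fold change -0.26, adjusted p = 0.333, edgeR). mRpS26 had 34.9, 27.8 and 30.8 CPM in active CT3 cells, against 36.9, 41.0 and 44.7 CPM in inactive CT3 cells, with no overlap (log2 fold change -0.39, adjusted p = 0.126). The widest estimate of this pair, 0.77 for mRpL34, had a 95% interval from -0.05 to 1.59.

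The contrast of active with inactive derivatives was then compared between chemotypes, as a difference of log2 fold changes. For CT1 minus CT2 edgeR called 0 of the 71 genes, against 6.5% of all genes, for CT1 minus CT3 0, against 1.01%, and for CT3 minus CT2 0, against 0.657%. Of the 4680 genes within the same range of mean CPM it called 4.68%, 0.577% and 0.47%. The medians over the 71 genes were 0.10, -0.04 and 0.11. At an unadjusted p under 0.05 there were 4, 3 and 3 genes for CT1 minus CT2, CT1 minus CT3 and CT3 minus CT2 with edgeR, 2, 1 and 2 with DESeq2, and 0, 2 and 0 with limma, and neither DESeq2 nor limma called any. The intervals lay within a 1.5-fold difference for 38, 42 and 39 of the 71 genes, so larger differences between chemotypes were not excluded by the intervals of the rest.

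The effect of DMSO alone was read from the control groups, where each vehicle group had 2 libraries. For vehicle noOA against noOA edgeR called 0 of the 71 genes, against 0.0131% of all genes, and for vehicle OA against OA 0, against 0%. At an unadjusted p under 0.05 there were 1 and 4 genes with edgeR, 1 and 0 with DESeq2 and 1 and 6 with limma, and neither DESeq2 nor limma called any. The medians were 0.08 and 0.00, with positive fold changes in 73.2% and 50.7% of the 71 genes, against 49.8% and 48.8% of all genes.

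Other genes of mitochondrial gene expression were read from fixed lists. tko and bonsai, mitochondrial ribosomal proteins of the small subunit named otherwise, were not called in any of the 17 comparisons. Of 9 translation factors and 9 genes of transcription and genome maintenance tested, 0 were called with edgeR in any of them. The 13 transcripts of mitochondrial DNA, a list added later, also had 0 calls with edgeR. Of 81 cytoplasmic ribosomal protein genes tested, likewise added later, 3 were called lower in OA against noOA cells. In vehicle OA against vehicle noOA cells 8 were called lower, and for CT1 minus CT2 1 was called higher. Of all genes, 14.5%, 5.32% and 6.5% were called in either direction in these 3 comparisons.

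The exception was scu among 6 genes of mitochondrial RNA processing. It encodes a dehydrogenase that acts in fatty acid oxidation and is also a subunit of the mitochondrial enzyme that trims tRNAs. scu rose in OA against noOA cells (log2 fold change 0.25, adjusted p = 0.00588, edgeR), and over vehicle OA cells in active CT1 (0.75, adjusted p = 8.84e-08), active CT2 (0.47, adjusted p = 0.00328) and active CT3 cells (0.68, adjusted p = 3.24e-06). It was also higher in active than in inactive CT1 cells (0.71, adjusted p = 1.17e-08) and CT3 cells (0.40, adjusted p = 0.00246) but not called for CT2 (0.15, adjusted p = 0.484), and the CT1 difference exceeded that of CT2 by 0.57 (adjusted p = 0.00196).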

How the data were processed

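RNA-Seq of S3 cells gave 36 libraries in 10 groups, from poly(A) RNA. The authors aligned reads with TopHat2 2.0.10 to the BDGP R5 genome and deposited raw counts per gene from HTSeq 0.5.4p1, without normalization and with the strand setting not given in the sources used here. The authors also deposited FPKM values from Cufflinks 2.1.1. No ERCC spike-in was used here. The 18S rRNA gene FBgn0085813 was removed. Counts of 34 libraries were fitted jointly with edgeR 4.0.16 in R 4.3.3 (TMM, filterByExpr, quasi-likelihood F test), without the 2 libraries that the study dropped. In all, 7614 genes were tested, with Benjamini-Hochberg adjustment within each comparison, and genes were called at an adjusted p under 0.05. Counts at an unadjusted p under 0.05 are given without the share over all genes, so they are a description only. CPM use TMM factors over 36 libraries. Alternatives used DESeq2 1.42.0 and limma 3.58.1 on log2(FPKM + 1) or log2(FPKM + 0.1).

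The 71 genes and the lists were chosen with earlier results of these data known. The genes named are mRpL12, mRpL3, mRpS5 and mRpS35, which the study's tables hold, up to 6 called genes in each direction of a comparison, the 5 highest and 5 lowest by FPKM, the 3 with the widest and the 3 with the narrowest range between groups, and those beside the limit of 5 CPM. Others were chosen after their values were seen. Symbols came from the reference table for 16815 gene IDs and from the study's tables for 81, mRpS5 among them. Coordinates are not given, since the annotation used for lengths is of another build (BDGP6). The fits were tested on simulated data.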

Additional observations from a re-analysis of the deposited data

Results flagged for a closer look

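mRpL53 had 0 reads in the counts of all 36 libraries, but the FPKM values list it at a median of 46.3 FPKM, with a range from 22.2 to 73.5 FPKM. It was marked because this signal lies in values that no comparison of counts can use. The FPKM values thus place it above the median of 32.0 FPKM of the 71 genes. The cause of the difference between the deposited counts and FPKM values was not tested.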

How the results depend on the processing

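The counts of calls and medians of each comparison, and 16 log2 fold changes of named genes, were recomputed with RLE size factors, DESeq2, no filter on low counts, all 36 libraries, 2 separate fits of 22 and 16 libraries, the 18S rRNA gene kept, limma on FPKM values, and without each library in turn, and none of these 16 fold changes changed sign. Without 1 library mRpL12 ranged from -0.29 to -0.14 and mRpL30 from -0.49 to -0.24 in active against inactive CT2, mRpS35 from -0.38 to -0.17 and mRpL34 from 0.45 to 1.01 in CT3, and mRpS5 from 0.10 to 0.33 in CT1. For OA against noOA the 2 calls became 1 with DESeq2, no filter or 2 separate fits, 0 with limma, and between 0 and 2 without 1 library. For vehicle OA against vehicle noOA the 1 call became 0 with DESeq2, no filter or limma, and between 0 and 1 without 1 library. Without 1 library active against inactive CT1 gave 0 to 1 calls and CT2 0 to 3. The test for any difference was rerun in 3 ways only, and gave 1 call with all 36 libraries, 2 without noOA replicate 1 and 0 with DESeq2. mRpS30 was called in 40 of 44 alternatives, mRpL24 in 28 and mRpS25 in 34. Of these alternatives, 34 each leave out 1 library, and most of those libraries lie outside the groups compared. The tallies are therefore no measure of robustness. The losses given above for mRpL24 and mRpS25 without 1 library came mostly from libraries within the groups compared. The cause of the changes between alternatives was not tested.

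The replicate number served as a block in 1 fit, which left 1 call for OA and 0 for vehicle OA. Libraries of the same number did not deviate together (r between -0.114 and 0.104 over 32 pairs), and 1 of 12 OA and noOA libraries and 3, 4 and 3 of 6 for CT1, CT2 and CT3 correlated best with their own number, so the numbers were not taken as pairs.

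The FPKM values, which are not scaled further between libraries, moved the medians of the 71 genes. With limma on log2(FPKM + 1), filtered or not, and on log2(FPKM + 0.1), the median was 0.17 and 0.17 for OA against noOA, -0.15 and -0.15 for vehicle OA against vehicle noOA, 0.10 and 0.10 for active CT1, -0.0090 and -0.0092 for active CT2 and 0.027 and 0.028 for inactive CT2 against vehicle OA. It was 0.055 and 0.057 for active against inactive CT1, -0.0143 and -0.0146 for CT2, 0.15 and 0.16 for vehicle noOA against noOA, and -0.13 and -0.14 for vehicle OA against OA. For the OA effect with minus without DMSO it was -0.31 and -0.32 (-0.021 with all 36 libraries), for CT1 minus CT3 0.12 and 0.12, and for CT3 minus CT2 -0.025 and -0.026. The median of all genes moved with it, to 0.15 for OA against noOA and 0.11 for active against inactive CT2. Without 1 library the median ranged from 0.041 to 0.13 for CT1 minus CT2 and from 0.048 to 0.15 for inactive CT2 against vehicle OA. Over all genes, OA against noOA gave 112 calls with limma on log2(FPKM + 0.1) in place of 1103, and active against inactive CT2 gave 0 with limma, 192 with no filter and 183 with 2 separate fits in place of 118.

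Depth limits the low genes, with 24 reads per library at the median for mRpS6. A change of 1.5-fold was excluded for all 71 genes in OA against noOA only.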
